A study of Mus musculus with 18 samples.

Results

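The mRNA of the transcription factor p53 (gene Trp53) and of 9 genes that p53 is known to activate directly, Cdkn1a, Mdm2, Ccng1, Trp53inp1, Sesn2, Zmat3, Phlda3, Bbc3 and Pmaip1, was followed in mouse induced pluripotent stem cells (iPSCs) with and without the chromatin protein Hmga2, before and 24 h after induction into epiblast-like cells (EpiLCs). The 10 genes were chosen by their symbols, each of which named 1 row of the 45706 in the count table. All 10 passed the filter on low counts, with at least 64 counts in every library. RNA was sequenced in 18 libraries: Hmga2 wt cells, which came from 1 iPSC clone, and 2 Hmga2 KO clones (KO#1 and KO#2), each sampled at both times in 3 independent biological replicates. At 0 h, cells of all 3 lines grew as iPSCs on mitotically inactivated fibroblast feeders in serum with leukaemia inhibitory factor and the inhibitors PD0325901 and CHIR-99021 (2i). At 24 h they had been plated without feeders on Geltrex in EpiLC medium (DMEM/F12 and Neurobasal) with Activin A and bFGF. Each genotype is therefore represented by 1 or 2 clones, so a difference between a clone and wt cells cannot be told apart from a difference between clones.

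p53 is made continuously and kept low by Mdm2, a ubiquitin ligase that marks it for degradation. When DNA damage or other stress frees p53 from Mdm2, it binds the promoters and introns of its targets, Mdm2 among them, which closes a feedback loop. Other targets stop the cell cycle (Cdkn1a, encoding p21), restrain growth signalling (Sesn2, Phlda3), bind RNA (Zmat3), feed back on p53 (Ccng1, Trp53inp1) or start mitochondrial apoptosis (Bbc3, encoding Puma, and Pmaip1, encoding Noxa). p53 protein and its activity are set largely after transcription, and only mRNA was measured here. Pluripotent cells are known to carry much p53 and to divide with a short G1 phase.

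Promoter windows of 300 bases, from 250 bases before to 50 bases after an annotated start, were taken from RefSeq (GRCm38.p6) for 7 of the 10 genes and searched for the p53 half-site, the degenerate decamer of which 2 copies make up a p53 response element. The decamer reads the same on both strands. Of the 10 windows, 4 held it, against 8.36% of all 32851 promoter windows of this length. These 4 windows are shown because they held the half-site. Sesn2, Phlda3 and Bbc3, whose windows held none, were also called in some comparisons. Each is written 5′ to 3′ on the strand of the gene, with half-sites in capitals.
Cdkn1a (chr17:29090729-29091028, plus strand): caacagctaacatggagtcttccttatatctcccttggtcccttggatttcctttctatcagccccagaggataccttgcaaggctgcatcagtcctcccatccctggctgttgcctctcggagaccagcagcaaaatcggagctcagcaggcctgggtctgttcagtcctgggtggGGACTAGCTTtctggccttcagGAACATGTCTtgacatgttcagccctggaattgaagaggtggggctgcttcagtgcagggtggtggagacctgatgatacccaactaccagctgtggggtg
Mdm2 (chr10:117710709-117711008, minus strand): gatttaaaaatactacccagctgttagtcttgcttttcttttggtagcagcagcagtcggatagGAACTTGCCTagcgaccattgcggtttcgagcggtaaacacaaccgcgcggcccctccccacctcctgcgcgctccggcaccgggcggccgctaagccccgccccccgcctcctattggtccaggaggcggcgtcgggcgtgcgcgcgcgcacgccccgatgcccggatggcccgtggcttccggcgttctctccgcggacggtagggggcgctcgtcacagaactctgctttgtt
Ccng1 (chr11:40755237-40755536, minus strand): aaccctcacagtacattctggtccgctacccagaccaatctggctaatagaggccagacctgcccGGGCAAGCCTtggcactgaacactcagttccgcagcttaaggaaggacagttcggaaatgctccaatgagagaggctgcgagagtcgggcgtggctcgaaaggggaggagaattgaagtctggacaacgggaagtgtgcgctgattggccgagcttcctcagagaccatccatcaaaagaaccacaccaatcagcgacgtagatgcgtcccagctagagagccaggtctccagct
Trp53 (chr11:69580109-69580408, plus strand): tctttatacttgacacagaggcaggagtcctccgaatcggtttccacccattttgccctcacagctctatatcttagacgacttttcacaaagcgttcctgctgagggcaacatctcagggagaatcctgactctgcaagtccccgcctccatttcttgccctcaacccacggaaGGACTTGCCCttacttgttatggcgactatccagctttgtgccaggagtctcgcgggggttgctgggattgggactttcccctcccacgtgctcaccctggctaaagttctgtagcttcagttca
The Cdkn1a window held both decamers of a full site, GGACTAGCTT at position -73 and GAACATGTCT at -51 from the start, with at most 13 bases between them. Such a full site was present in 24 of the 32851 windows (0.0731%). Single decamers were GAACTTGCCT at -186 in Mdm2, GGGCAAGCCT at -185 in Ccng1 and GGACTTGCCC at -75 in Trp53. The windows of Sesn2, Phlda3 and Bbc3 and a second one of Cdkn1a held no such letters. A match is a string of letters, not a measured site, and binding of p53 was not measured.

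In GRCm38, Trp53 lies on chr11:69580359-69591873 (+), Cdkn1a on chr17:29090976-29100727 (+), Mdm2 on chr10:117688875-117710758 (-), Ccng1 on chr11:40748552-40755311 (-), Trp53inp1 on chr4:11156431-11174379 (+) and Sesn2 on chr4:132492032-132510501 (-). Zmat3 lies on chr3:32334792-32366014 (-), Phlda3 on chr1:135766119-135769136 (+), Bbc3 on chr7:16308393-16318205 (+) and Pmaip1 on the plus strand of chromosome 18. All 10 are protein-coding. Sesn2 overlaps Gm12981, annotated on the same strand, which had 172 counts in the 18 libraries together, and Cdkn1a overlaps an annotated gene on the opposite strand that is not in the count table.

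Library totals ranged from 3466436 to 23872837 counts. Levels are given in CPM, the count relative to the library size after TMM scaling, with the values of a group in order of replicate number, and log2 fold changes with standard errors (SE) come from one edgeR quasi-likelihood model over all 18 libraries, with p-values adjusted by Benjamini-Hochberg over 16619 genes and called under 0.05. The libraries labelled KO#2 stood apart at 24 h, where protein-coding genes took 82.3% to 84.7% of their counts and 5 abundant noncoding RNAs 9.53% to 11.6%. In the libraries labelled KO#2 from 0 h these shares were 76.3% to 79.1% and 12.9% to 15.8%, and in the other 12 libraries 41.3% to 77.4% and 15.4% to 46.8%, with KO#1 replicate 3 at 0 h inside the 0 h ranges of KO#2. The naive markers (8 genes, such as Nanog and Esrrb) summed to 2207 to 3462 CPM at 0 h and 163 to 500.0 CPM at 24 h, and the EpiLC markers (6 genes, such as Fgf5 and Otx2) to 76.8 to 115 CPM at 0 h and 378 to 1516 CPM at 24 h. Fibroblast markers (8 genes, such as Col1a1 and Lox) summed to 110.0 to 898 CPM at 0 h and 19.0 to 219 CPM at 24 h, and Dcn was at 0 in every wt library at 0 h. In bulk RNA, a change in the share of a cell type and a change in RNA per cell cannot be told apart.

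Hmga2 itself, the targeted gene, measured 17.4, 13.3 and 22.4 CPM in wt cells at 0 h, 10.2, 4.59 and 1.75 CPM in KO#1 and 4.10, 1.84 and 8.25 CPM in the libraries labelled KO#2. Values at 24 h were 5.87, 5.51 and 5.93 CPM in wt cells, 3.67, 2.25 and 0.871 CPM in KO#1 and 10.5, 3.02 and 3.48 CPM in the libraries labelled KO#2. Both clones lay below wt cells at 0 h without overlap, but at 24 h the libraries labelled KO#2 overlapped wt cells (means of 5.65 and 5.77 CPM). Against wt cells, Hmga2 was called lower at 0 h in the libraries labelled KO#2 (log2 fold change -1.90, SE 0.62, adjusted p = 0.023), and in KO#1 it missed the threshold at 0 h (adjusted p = 0.124) and 24 h (adjusted p = 0.22). Below, KO#2 stands for the libraries so labelled, and the directions given for them at 24 h rest on labels that the Hmga2 counts do not check.

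Trp53 mRNA was lower in KO#2 than in wt cells and KO#1 at both times and was not called over the induction in any line. In wt cells it measured 298, 156 and 206 CPM at 0 h and 213, 261 and 273 CPM at 24 h. In KO#1 it measured 186, 164 and 121 CPM at 0 h and 181, 238 and 272 CPM at 24 h. In KO#2, values were 84.8, 79.8 and 89.5 CPM at 0 h and 145, 104 and 114 CPM at 24 h. All 6 libraries labelled KO#2 lay below every wt and KO#1 library of the same time. Against wt cells, Trp53 was 2.59-fold lower at 0 h (log2 fold change -1.37, SE 0.26, adjusted p = 0.00091) and 2.06-fold lower at 24 h (-1.04, SE 0.26, adjusted p = 0.00439). Against KO#1, it was lower by -0.89 (SE 0.26, adjusted p = 0.0173) at 0 h and by -0.93 (SE 0.26, adjusted p = 0.0094) at 24 h on the log2 scale. The call against KO#1 at 0 h was lost without KO#1 replicate 1 or without replicate 1 or 2 of KO#2 at that time. The largest change over 24 h, in KO#1, was 0.55 (SE 0.26, adjusted p = 0.0891) on the log2 scale.

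The value for Trp53 at 24 h turned on the scaling of the libraries. With library totals alone, the median gene of all 16619 lay 1.24 higher in KO#2 than in wt cells on the log2 scale, against 0.20 with TMM. By library totals 10208 of these genes were called, against 6197 with TMM, and 94.8% of called genes were higher, against 57.1%. The log2 fold change of Trp53 was then 0.0096 and not called, but relative to the median gene it was -1.23, against -1.25 with TMM. The same held for the other genes called there: none was then called, but relative to the median gene Cdkn1a was at -1.60 under both scalings, Bbc3 at -1.43 with TMM and -1.398 with library totals and Pmaip1 at -1.81 and -1.83. In the other direction, Mdm2 (1.53), Ccng1 (1.43), Trp53inp1 (1.83), Sesn2 (1.40) and Zmat3 (1.83) were called higher in KO#2 than in wt cells at 24 h with library totals, while relative to the median gene they lay at 0.16 to 0.58, and at 0.17 to 0.59 with TMM. A change of scaling shifts all genes of a comparison by nearly the same amount, and subtracting the median removes that shift. The values relative to the median were therefore bound to agree, and their agreement is no check on the scaling. Against KO#1 at 24 h, library totals turned Trp53 to 0.13 and left Bbc3 at -0.03 and Phlda3 at -0.31, without a call. At 0 h they left Cdkn1a in KO#2 (-0.63) and Pmaip1 in KO#1 (-1.26) below wt cells and Trp53 in KO#2 below KO#1 (-0.57), also without a call. Cdkn1a in KO#2 at 0 h also lost its call against KO#1. Counts per count of Trp53 in the same library do not depend on the scaling. By this measure, 69.2% of the other genes were higher in KO#2 than in wt cells without overlap at 0 h and 0.975% were lower, and at 24 h 63.3% were higher and 4.16% lower. Of the 9 targets, 5 were higher at 0 h (Mdm2, Ccng1, Trp53inp1, Zmat3 and Phlda3) and 4 at 24 h (Mdm2, Trp53inp1, Sesn2 and Zmat3). With most genes higher by this measure, nothing particular to the targets is read from it. Mdm2 held 0.220 to 0.360 counts per count of Trp53 in wt cells at 0 h and 1.22 to 1.71 in KO#2.

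**Figure D1:**
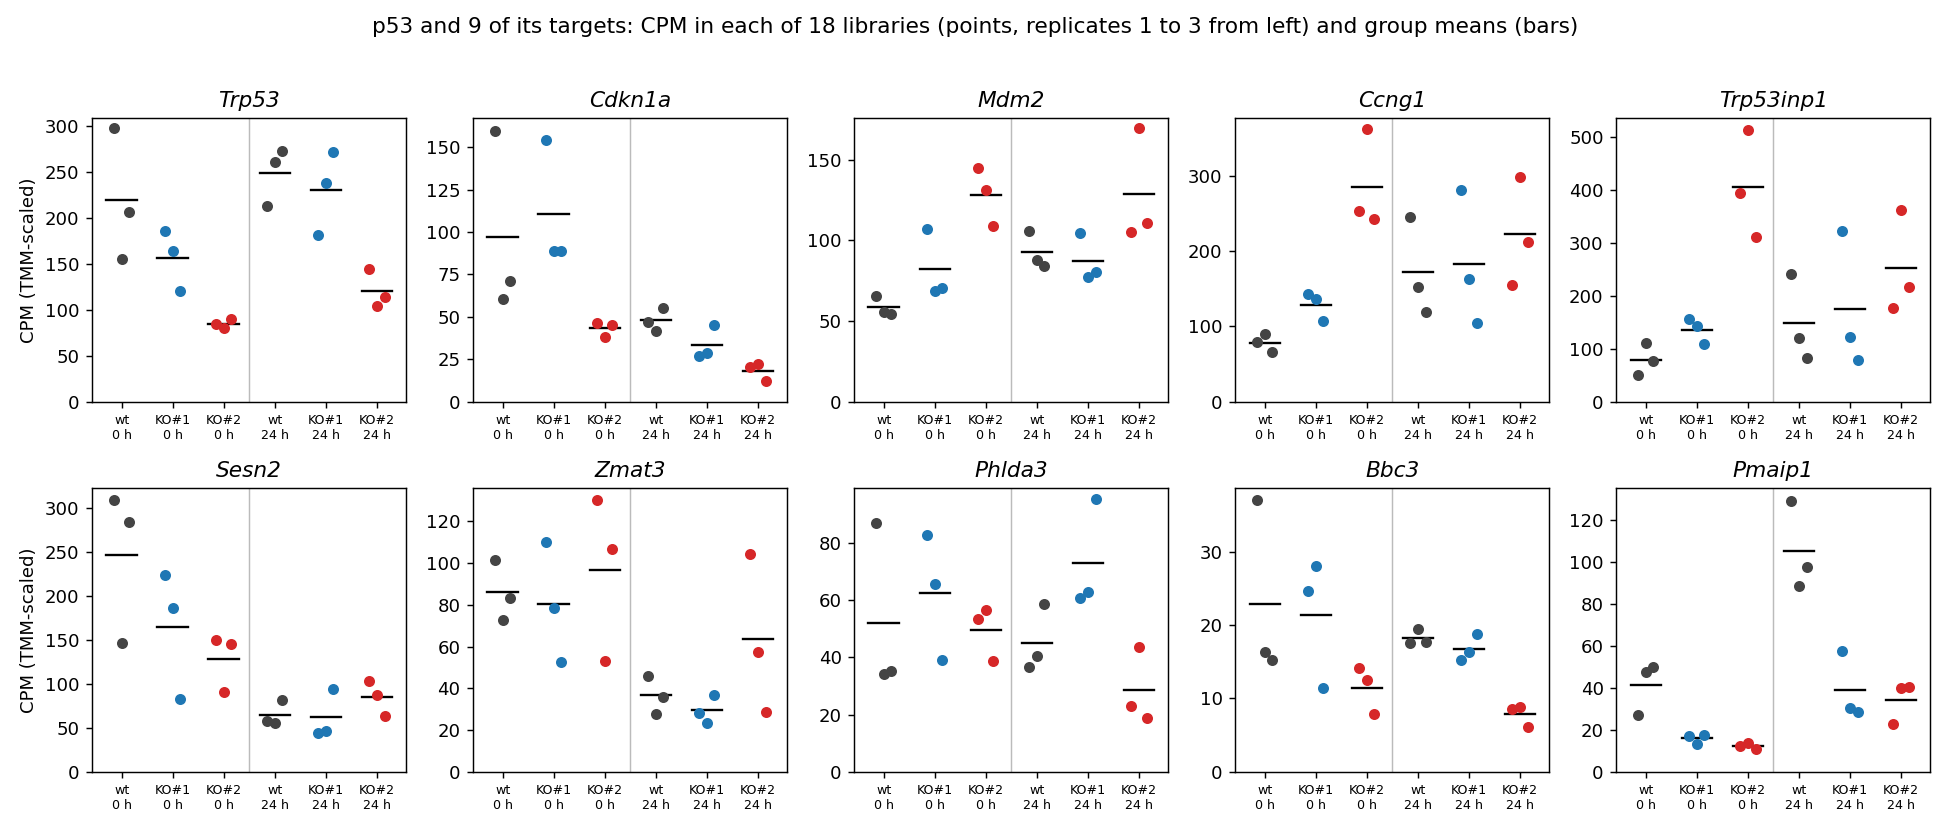
CPM (vertical axis, starting at 0) of Trp53 and 9 of its targets in each library, by line and time, with replicates 1 to 3 from left to right as points and group means as bars. Trp53 and Pmaip1 were low in both KO#2 groups (red), whereas Ccng1 and Trp53inp1 were highest in KO#2 at 0 h, with means of 286 and 406 CPM.

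Mdm2 and Ccng1, the 2 feedback genes closest to p53, were higher in KO#2 than in wt cells at 0 h. Mdm2 measured 65.6, 55.9 and 54.4 CPM in wt cells at 0 h, 107, 68.7 and 70.3 CPM in KO#1 and 145, 131 and 109 CPM in the libraries labelled KO#2. The 3 lines did not overlap in Mdm2 at 0 h, and KO#2 was 2.19-fold above wt cells (log2 fold change 1.13, SE 0.24, adjusted p = 0.00212). Its difference from KO#1 (0.65, SE 0.24, adjusted p = 0.0535) missed the threshold and was called in 6 of 18 alternative settings. At 24 h, Mdm2 measured 106, 88.1 and 83.8 CPM in wt cells, 104, 77.3 and 80.3 CPM in KO#1 and 105, 170.0 and 111 CPM in KO#2, and no difference between lines was called. The KO#2 libraries at 24 h did not overlap those of KO#1, and that difference (0.56, SE 0.24, adjusted p = 0.0757) was called in 3 of 18 alternative settings: library totals (1.66), at least 10 counts in every library (0.67) and the replicate block (0.57). The difference from wt cells (0.47, adjusted p = 0.126) was called in 2 of them, library totals (1.53) and at least 10 counts in every library (0.62). Mdm2 rose over 24 h in wt cells by 0.66 (SE 0.24, adjusted p = 0.0286) on the log2 scale. That call was lost in 9 of 18 alternative settings, among them those without wt replicates 2 or 3 at 0 h or replicates 1 or 2 at 24 h. With library totals the value was 0.06.

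Ccng1, which encodes cyclin G1, a partner of the phosphatase that acts on Mdm2, showed larger differences. It measured 79.4, 89.9 and 65.9 CPM in wt cells at 0 h, 143, 136 and 107 CPM in KO#1 and 253, 362 and 242 CPM in KO#2. Again the 3 lines did not overlap. KO#2 lay 3.65-fold above wt cells (log2 fold change 1.87, SE 0.35, adjusted p = 0.000948) and 2.22-fold above KO#1 (1.15, SE 0.35, adjusted p = 0.0214). The latter was lost without KO#1 replicate 2 or 3 or KO#2 replicate 2. At 24 h, Ccng1 measured 245, 152 and 119 CPM in wt cells, 281, 162 and 104 CPM in KO#1 and 155, 299 and 212 CPM in KO#2, so that all lines overlapped. With library totals KO#2 was called higher there, by 1.43 against wt cells and 1.44 against KO#1. In wt cells the rise over 24 h was 2.19-fold (1.13, SE 0.35, adjusted p = 0.0117), and it was not called without wt replicate 3 at 0 h or replicate 1 at 24 h, nor with library totals.

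Trp53inp1, a nuclear protein that promotes p53 phosphorylation and autophagy, followed Ccng1. It measured 49.5, 111 and 76.8 CPM in wt cells at 0 h, 156, 144 and 108 CPM in KO#1 and 394, 513 and 311 CPM in KO#2. Every KO#2 library lay above every library of the other lines. KO#2 was 5.11-fold above wt cells (log2 fold change 2.35, SE 0.49, adjusted p = 0.0017), the largest difference of a member between lines, and 2.98-fold above KO#1 (1.58, SE 0.47, adjusted p = 0.0214), which was lost without the same 3 libraries as for Ccng1. At 24 h it measured 241, 120.1 and 82.9 CPM in wt cells, 323, 122 and 78.5 CPM in KO#1 and 177, 363 and 217 CPM in KO#2. These ranges overlapped and no difference was called, although with library totals KO#2 was called higher than wt cells (1.83) and KO#1 (1.70). Trp53inp1 and Ccng1 were highest in the same replicate in 6 of 6 groups, where 4.03% of the other tested genes shared the highest replicate of Ccng1 in at least 5. The other 8 genes shared it in 1 to 4 groups. The 4.03% is for a looser match than 6 of 6, and Ccng1 was the only reference taken. No link between Ccng1 and Trp53inp1 is therefore read from it.

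**Figure D2:**
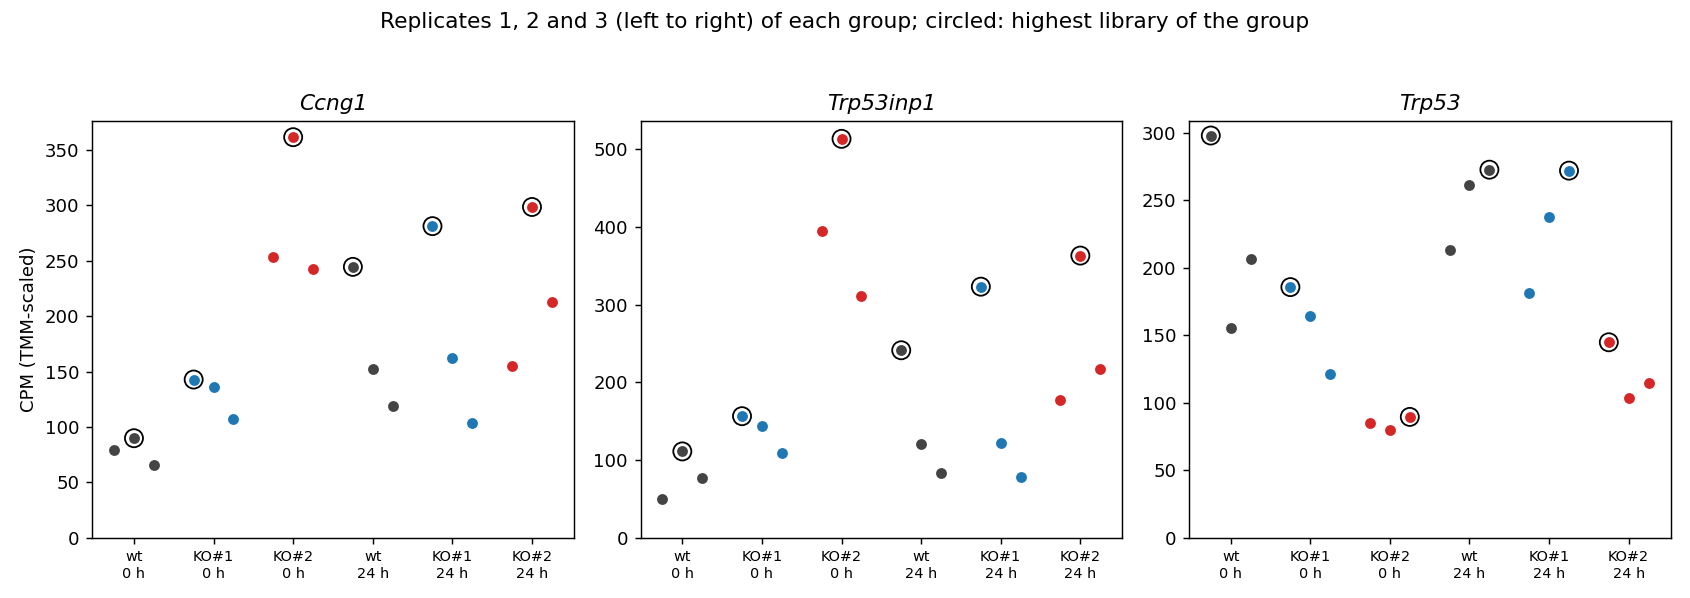
CPM of Ccng1, Trp53inp1 and Trp53 (vertical axes, starting at 0) in replicates 1, 2 and 3 of each group, from left to right, with the highest replicate circled. The circled replicate was the same for Ccng1 and Trp53inp1 in 6 of 6 groups, and the same for Ccng1 and Trp53 in 1.

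Cdkn1a, the inhibitor of cyclin-dependent kinases through which p53 halts cells in G1, fell over the induction in each line. It measured 159.7, 60.7 and 71.1 CPM in wt cells at 0 h and 46.8, 41.9 and 55.5 CPM at 24 h. In KO#1 it measured 154, 88.7 and 89.0 CPM and then 26.8, 28.6 and 45.1 CPM. In KO#2, values were 46.4, 38.3 and 45.0 CPM and then 20.4, 22.1 and 12.3 CPM. The time points did not overlap in any line, and the KO#2 libraries at 0 h were already near the wt libraries at 24 h. The log2 fold change at 24 h was -1.01 (SE 0.34, adjusted p = 0.0206) for wt cells, -1.72 (SE 0.35, adjusted p = 0.000998) for KO#1 and -1.24 (SE 0.34, adjusted p = 0.0123) for KO#2. Of all genes tested, 8.33% were called lower in all 3 lines. The wt call was lost without replicate 1 at 0 h, the library with fewest counts, where the log2 fold change was -0.49, and without replicate 1 or 2 at 24 h. The KO#2 call was lost without replicate 3 at 24 h.

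Against wt cells, Cdkn1a in KO#2 was 2.23-fold lower at 0 h (log2 fold change -1.16, SE 0.34, adjusted p = 0.0143) and 2.63-fold lower at 24 h (-1.40, SE 0.34, adjusted p = 0.00436). At 0 h the difference was -0.64 and not called without wt replicate 1, and the call was also lost without KO#2 replicate 2. KO#2 was lower than KO#1 too at 0 h (-1.36, SE 0.34, adjusted p = 0.00834), while at 24 h the difference from KO#1 (-0.88, SE 0.34, adjusted p = 0.053) missed the threshold, though the libraries did not overlap. DESeq2, the fit without the filter, only the groups compared and the replicate block called the latter lower. So did the fits without KO#1 replicate 1 at 24 h and without the 2 libraries with fewest counts. With library totals the value was 0.16. The full site in the Cdkn1a window shown above and the single decamers of Mdm2 and Ccng1 thus belonged to genes that differed in opposite directions between KO#2 and wt cells at 0 h.

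Zmat3, an RNA-binding zinc finger protein, and Sesn2, a stress-induced inhibitor of mTORC1 signalling, fell with Cdkn1a in wt cells and KO#1. Sesn2 measured 309, 146 and 284 CPM in wt cells at 0 h and 57.7, 55.5 and 82.0 CPM at 24 h, a 3.78-fold fall (log2 fold change -1.92, SE 0.39, adjusted p = 0.00071) that was called in all 18 alternative settings. In KO#1, Sesn2 measured 224, 187 and 82.3 CPM and then 44.5, 46.8 and 94.1 CPM. The time points overlapped there, through replicate 3 of each, and the fall was called (-1.41, SE 0.39, adjusted p = 0.0082), except without replicate 1 at 0 h. In the libraries labelled KO#2, Sesn2 measured 150.1, 90.3 and 146 CPM and then 103, 87.4 and 63.8 CPM, and no change was called. At 0 h KO#2 overlapped wt cells, and the difference (-0.94, SE 0.38, adjusted p = 0.06) missed the threshold. It was called lower by DESeq2, with RLE in place of TMM scaling, without the filter on low counts and without wt replicate 2 at 0 h.

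Zmat3 measured 102, 72.9 and 83.4 CPM in wt cells at 0 h and 46.1, 27.9 and 36.0 CPM at 24 h. In KO#1 it measured 110.1, 78.5 and 52.5 CPM and then 28.0, 23.3 and 36.8 CPM. Both lines fell without overlap, by -1.23 (SE 0.40, adjusted p = 0.0173) in wt cells and -1.45 (SE 0.41, adjusted p = 0.00918) in KO#1 on the log2 scale. The wt call was lost without wt replicate 2 at 24 h and the KO#1 call without replicate 1 at 0 h. In the libraries labelled KO#2, Zmat3 spread from 53.3 to 130.4 CPM at 0 h and from 28.5 to 105 CPM at 24 h, and no change was called. Its difference from KO#1 at 24 h was called (1.11, SE 0.40, adjusted p = 0.0386) although the libraries overlapped, and it was lost without any 1 of 4 libraries (replicates 1 and 2 of either clone). Without KO#2 replicate 1 the value was 0.55 (adjusted p = 0.305).

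Phlda3, which competes with Akt for membrane lipids, was not called over time or against wt cells in either clone. It measured 86.9, 34.1 and 35.4 CPM in wt cells at 0 h and 36.5, 40.4 and 58.7 CPM at 24 h, against 82.9, 65.6 and 39.0 CPM and 60.6, 62.8 and 95.3 CPM in KO#1. At 24 h the KO#1 libraries lay above all wt libraries, but the difference (0.69, SE 0.38, adjusted p = 0.315) was not called. The libraries labelled KO#2 held 53.5, 56.7 and 38.7 CPM at 0 h and 23.2, 43.8 and 18.8 CPM at 24 h. At 24 h they lay below all KO#1 libraries, 2.55-fold on the fitted scale (log2 fold change -1.35, SE 0.39, adjusted p = 0.0117), a call that was lost without KO#2 replicate 1 or 3.

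The apoptosis genes Bbc3 and Pmaip1 were both low in KO#2, and Pmaip1 was low in both clones. Pmaip1, whose product Noxa binds Mcl-1, measured 27.2, 47.5 and 49.8 CPM in wt cells at 0 h, 16.9, 13.4 and 17.7 CPM in KO#1 and 12.2, 13.9 and 10.6 CPM in KO#2. Values at 24 h were 129, 88.8 and 97.7 CPM in wt cells, 57.7, 30.3 and 28.6 CPM in KO#1 and 22.8, 40.0 and 40.4 CPM in KO#2. All 12 KO libraries lay below every wt library of the same time. Against wt cells, Pmaip1 was lower by 2.60-fold in KO#1 (log2 fold change -1.38, SE 0.31, adjusted p = 0.0099) and 3.41-fold in KO#2 (-1.77, SE 0.31, adjusted p = 0.000516) at 0 h. At 24 h it was lower by 2.71-fold in KO#1 (-1.44, SE 0.30, adjusted p = 0.00426) and 3.05-fold in KO#2 (-1.61, SE 0.30, adjusted p = 0.000586). The comparisons share their wt libraries, and without wt replicate 3 the KO#1 call at 0 h was lost (adjusted p = 0.0583). Pmaip1 was the only member called in all 4 comparisons of a clone with wt cells, as were 0.668% of all genes tested in the same direction. The clones did not differ in Pmaip1 by the test at 0 h (95% interval -1.03 to 0.25) or at 24 h (-0.80 to 0.45), but with library totals KO#2 was called higher than KO#1 at 24 h (0.94).

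Pmaip1 rose over the induction in each line, by 2.51-fold in wt cells (log2 fold change 1.33, SE 0.30, adjusted p = 0.00164), 2.41-fold in KO#1 (1.27, SE 0.31, adjusted p = 0.0037) and 2.81-fold in KO#2 (1.49, SE 0.30, adjusted p = 0.00173). The time points did not overlap in any line. Of all genes tested, 7.61% were called higher in all 3 lines. With library totals alone the wt and KO#1 rises were 0.70 and 0.43 and were not called, and relative to the median gene they were 1.28 and 1.22.

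Bbc3, whose product Puma frees Bax and Bak from their inhibitors, measured 37.1, 16.2 and 15.3 CPM in wt cells at 0 h, 24.6, 28.0 and 11.4 CPM in KO#1 and 14.1, 12.5 and 7.87 CPM in KO#2. At 24 h it measured 17.5, 19.4 and 17.7 CPM in wt cells, 15.3, 16.3 and 18.8 CPM in KO#1 and 8.52, 8.82 and 6.08 CPM in KO#2. At 24 h the KO#2 libraries lay well apart from the other lines, 2.33-fold below wt cells (log2 fold change -1.22, SE 0.35, adjusted p = 0.0111) and 2.15-fold below KO#1 (-1.10, SE 0.35, adjusted p = 0.0202), the latter lost without KO#1 replicate 3 or KO#2 replicate 3. At 0 h the difference from wt cells (-0.96, SE 0.35, adjusted p = 0.0395) was lost in 9 of 18 settings and was -0.48 without wt replicate 1. Bbc3 did not pass the test over time in any line.

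**Figure D3:**
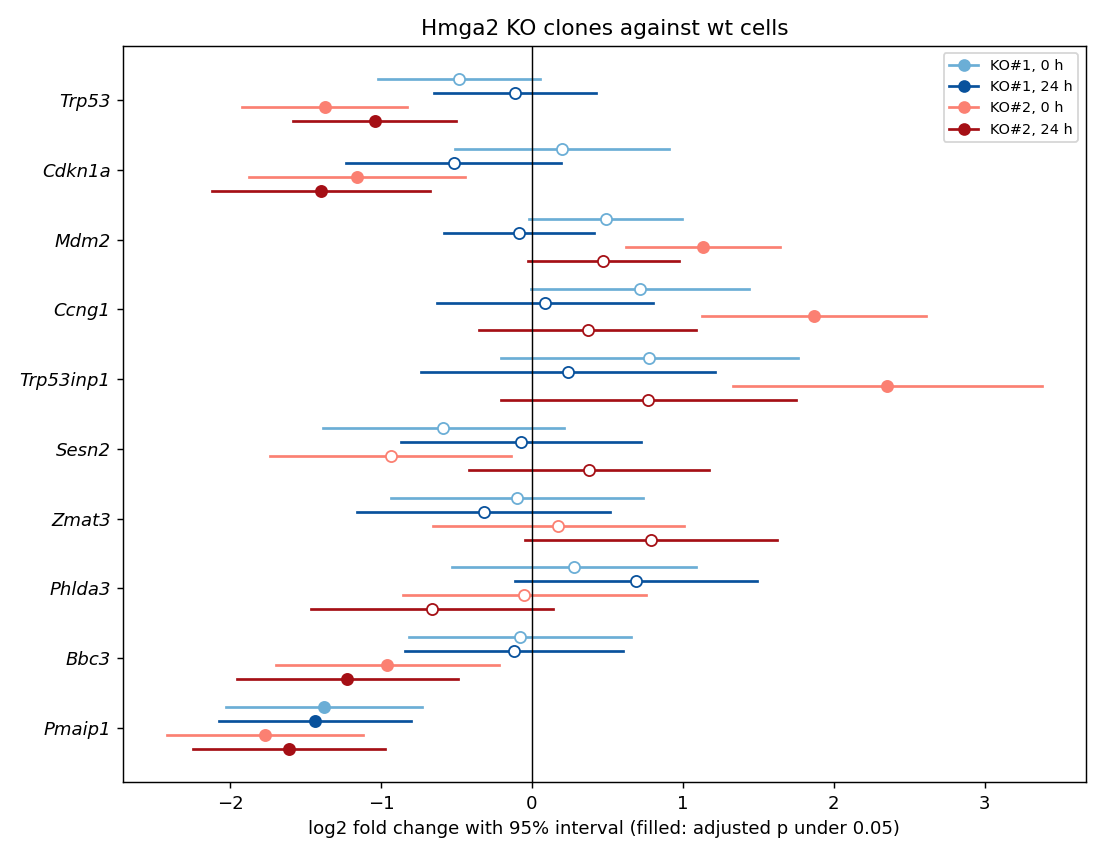
Log2 fold changes (horizontal axis) of the 10 genes in each KO clone against wt cells at 0 h and 24 h, with 95% intervals as lines and filled points for an adjusted p under 0.05. Pmaip1 was to the left of 0 in all 4 comparisons, from -1.77 to -1.38, and Mdm2, Ccng1 and Trp53inp1 lay to the right in KO#2 at 0 h, from 1.13 to 2.35.

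By count, 6 of the 10 genes were called over 24 h in wt cells, 3 higher (Mdm2, Ccng1, Pmaip1; 26% of all genes) and 3 lower (Cdkn1a, Zmat3, Sesn2; 24.7%), against 50.7% of all genes tested in either direction. In KO#1 4 were called, against 40.8%, and in KO#2 2 were called, against 26% of all genes. These counts were near those backgrounds. Libraries of the time points did not overlap for 6 of the 10 genes in wt cells, against 57.9% of all genes, for 3 in KO#1, against 44.5%, and for 3 in KO#2, against 44.7%. Wt cells had a median log2 fold change over the 10 genes of -0.0016, KO#1 of 0.16 and KO#2 of -0.58, beside 0.03, 0.0037 and -0.03 over all genes tested. Fibroblast markers moved with these comparisons: in wt cells 6 of 8 were called lower at 24 h and 1, Dcn, higher. In KO#1 6 were called lower and 1 higher, and in KO#2 3 lower and 0 higher. Of 6 primitive endoderm markers, 3 were called lower in wt cells and 2 in KO#1, with 0 higher. In KO#2 4 were called higher and 1 lower. At 0 h, the library of wt cells with the highest sum of the fibroblast markers (replicate 1, 390.0 CPM) was the highest for 7 of the 10 genes, Cdkn1a, Zmat3 and Sesn2 among them, beside 35.2% of all genes. It was also the library with fewest counts. In KO#1 the corresponding library (replicate 1, 514 CPM) was the highest for 8, again including these 3, beside 30.5% of all genes. In KO#2 the library with the highest sum (replicate 3, 898 CPM) was the highest for 1 gene, Trp53, beside 31.2% of all genes. The part of the feeders in the falls of Cdkn1a, Zmat3 and Sesn2 was not tested.

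**Figure D4:**
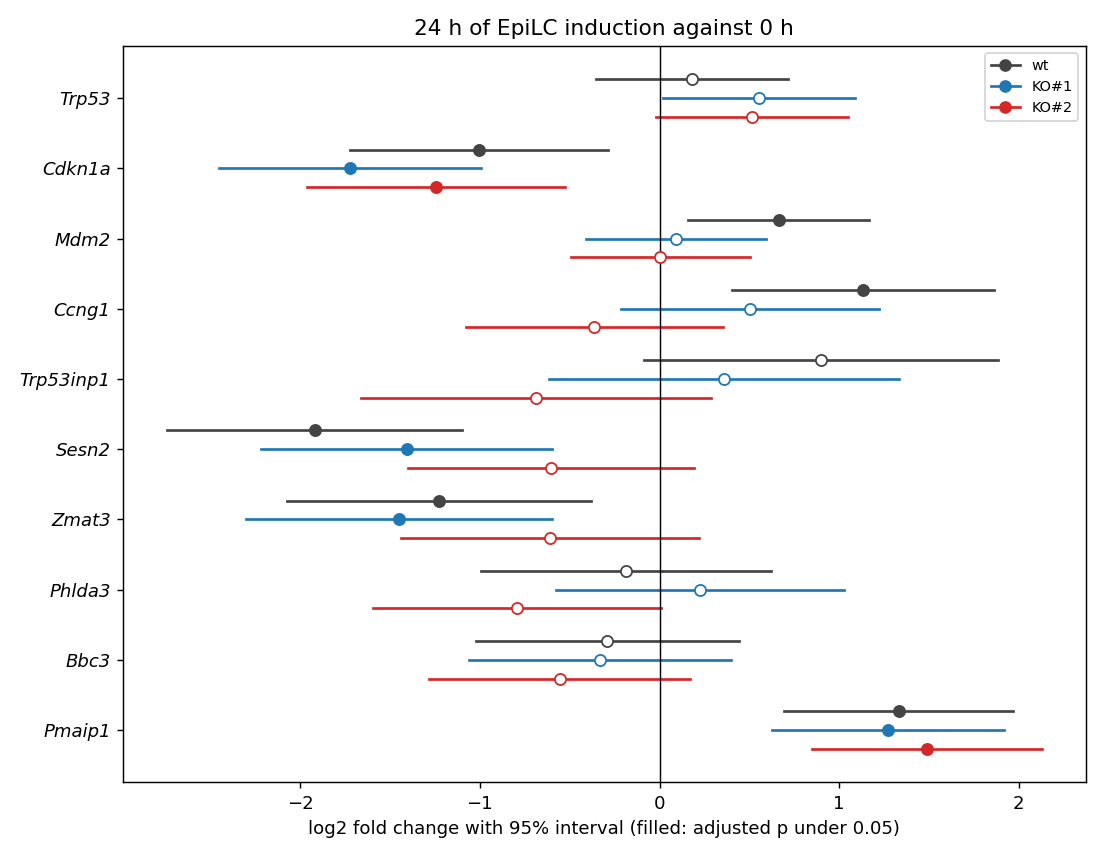
Log2 fold changes (horizontal axis) of the 10 genes at 24 h of EpiLC induction against 0 h in wt cells, KO#1 and KO#2, with 95% intervals as lines and filled points for an adjusted p under 0.05. Cdkn1a (-1.72 to -1.01) and Pmaip1 (1.27 to 1.49) were the 2 genes called in all 3 lines.

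Against wt cells, KO#1 differed in 1 of the 10 genes at 0 h (6.67% of all genes were called) and in 1 at 24 h (9.86%), Pmaip1 each time. The libraries labelled KO#2 differed in 7 at 0 h, against 38.1% of all genes: 3 were higher (21.5% of all genes) and 4 lower (16.6%). They differed in 4 at 24 h, all lower, against 16% of all genes called lower and 37.3% called in either direction. This count turned on the scaling: with library totals none of these 4 was called, and 5 others, Mdm2, Ccng1, Trp53inp1, Sesn2 and Zmat3, were called higher (1.40 to 1.83), where the median gene lay at 1.24. By that scaling 10208 of all 16619 genes were called, 94.8% of them higher, so nothing particular to these 5 is read from it. KO#2 differed from KO#1 in 4 genes at each time, against 26.4% at 0 h and 35.4% at 24 h. The libraries of KO#1 and wt cells did not overlap for 3 of the 10 genes at 0 h (20.5% of all genes) and 2 at 24 h (29.1%). For KO#2 and wt cells this held for 7 (52.9%) and 4 (52.1%), and for KO#2 and KO#1 for 5 (41.8%) and 5 (47.3%). The median log2 difference of the 10 genes from wt cells was 0.06 in KO#1 and -0.49 in KO#2 at 0 h, beside 0.02 and 0.10 over all genes, and -0.10 and -0.15 at 24 h, beside -0.02 and 0.20. At 0 h the 95% intervals of the KO#1 difference from wt cells ran from -0.02 to 0.99 for Mdm2 and -0.01 to 1.44 for Ccng1, and neither was called. Fibroblast markers were called higher in KO#2 than in wt cells for 4 of 8 genes at 0 h and 6 of 8 at 24 h, with sums of 331 to 898 CPM against 110.0 to 390.0 CPM at 0 h and 71.0 to 219 CPM against 19.0 to 34.6 CPM at 24 h. Primitive endoderm markers (6 genes, such as Gata6 and Sox17) were called higher in KO#2 for 3 of 6 genes and lower for 1 at 0 h (sums of 8.63 to 11.3 CPM against 4.87 to 6.23 CPM in wt cells), and higher for 6 of 6 at 24 h (14.2 to 28.2 CPM against 1.36 to 1.99 CPM). Of the 8 naive markers, 2 were called higher and 3 lower in KO#2 at 0 h (sums of 2207 to 2711 CPM against 2579 to 3462 CPM), and 5 were called higher at 24 h (198 to 500.0 CPM against 163 to 182 CPM). KO#1 was also above wt cells in naive markers at 24 h, with 4 of 8 called higher (349 to 473 CPM). Where Pmaip1 was called in KO#1, fibroblast markers summed to 183 to 514 CPM at 0 h (0 of 8 called) and 38.7 to 51.8 CPM at 24 h (1 of 8 called higher and 1 lower), and primitive endoderm markers to 6.26 to 9.64 CPM at 0 h (1 of 6 higher) and 2.99 to 7.79 CPM at 24 h (2 of 6 higher). Of 4 markers of pluripotent cells in either state, such as Pou5f1 and Sox2, 3 were called lower in KO#2 at 0 h (sums of 745 to 850 CPM against 1387 to 1933 CPM), and at 24 h 1 was called higher and 1 lower. EpiLC markers were called lower for 2 of 6 genes in KO#2 (378 to 812 CPM) and 3 of 6 in KO#1 (414 to 938 CPM) at 24 h, against 814 to 1516 CPM in wt cells, and at 0 h 1 was higher and 2 were lower in each clone. The part of these cell types or states in the differences of the 10 genes was not tested.

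Whether the clones responded differently from wt cells over 24 h was tested as an interaction, which was called for 0 of the 10 genes in either clone by edgeR, against 0.391% of all genes for KO#1 and 1.47% for KO#2. By DESeq2 it was also called for 0 of the 10, beside 276 of all 16619 genes for KO#1 and 1340 for KO#2. At an unadjusted p under 0.05 by edgeR there were 0 of the 10 genes for KO#1, beside 1679 of all 16619, and 3 for KO#2, beside 3920 of all 16619: Ccng1 (log2 difference -1.50, SE 0.49, adjusted p = 0.101), Trp53inp1 (-1.58, adjusted p = 0.166) and Sesn2 (1.32, adjusted p = 0.161). Without the filter on low counts these 3 were called (adjusted p = 0.0161, 0.0113 and 0.041), with 1717 of 29079 genes called in place of 244 of 16619. The higher Mdm2, Ccng1 and Trp53inp1 of KO#2 at 0 h and their overlap with wt cells at 24 h are therefore values at each time. Of the alternative settings, only the one without the filter called a difference in response, for Ccng1 and Trp53inp1 and not for Mdm2.

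Per kilobase of exon, the order of the 10 genes differed between lines. In wt cells at 0 h, Sesn2 (70.9 ± 25.3 CPM per kb, SD, n = 3) and Trp53 (54.3 ± 17.8) stood highest and Zmat3 (7.52 ± 1.27) lowest, and only Ccng1 (22.3 ± 3.42) and Pmaip1 (15.2 ± 4.54) were neighbours in this order whose libraries did not overlap. At 24 h in wt cells Trp53 led (61.6 ± 7.77), followed by Ccng1 (48.9 ± 18.6) and Pmaip1 (38.5 ± 7.77). At 0 h in KO#2, Ccng1 (81.4 ± 18.8) and Trp53inp1 (62.7 ± 15.7) overlapped each other and lay above Sesn2 (37.0 ± 9.60) and, further down, Trp53 (20.9 ± 1.195). Pmaip1 was last there (4.49 ± 0.603) and overlapped Bbc3 above it.

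The genes whose 6 group means were most like those of Trp53, by Euclidean distance of centred log2 CPM among tested genes, were Ubl7 (0.161), Aspscr1 (0.239) and Ccs (0.239). For Cdkn1a they were Acacb (0.579), Amdhd2 (0.589) and Bmyc (0.592), at larger distances, and none of these 6 is among the p53 targets listed here.

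Another 60 genes of the pathway were taken from lists of regulators and further targets, and all passed the filter. Of these, 17 were called higher and 15 lower over 24 h in wt cells, 13 and 14 in KO#1 and 4 and 8 in KO#2. Their median log2 fold changes were 0.17, 0.19 and -0.10, in that order. Against wt cells, 2 were higher and 0 lower in KO#1 at 0 h, 2 and 1 at 24 h, and in KO#2 14 were higher and 7 lower at 0 h and 13 and 9 at 24 h, with medians of 0.02 and 0.11 beside 0.10 and 0.20 over all genes. Of all genes, 50.7%, 40.8% and 26% were called over 24 h in wt cells, KO#1 and KO#2, 6.67% and 9.86% in KO#1 against wt cells at 0 h and 24 h, and 38.1% and 37.3% in KO#2 against wt cells.

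Of the 24 regulators and relatives of p53, 6 were higher and 2 lower in KO#2 than in wt cells at 0 h and 6 and 3 at 24 h, near the 38.1% and 37.3% of all genes called. Mdm4, which binds p53 and blocks its transactivation domain, was higher by 1.61 (SE 0.28, adjusted p = 0.000484) at 0 h and 1.39 (SE 0.28, adjusted p = 0.00094) at 24 h on the log2 scale, with group means of 333 against 109 CPM and 151 against 57.6 CPM. The damage kinases Atr (1.43) and Atm (1.03) were higher at 0 h as well, and Rpl11, a ribosomal protein that binds Mdm2, was lower at 24 h (-1.37). Mdm4 thus differed in KO#2 in the direction of Mdm2 at 0 h. Over 24 h in wt cells 6 of the 24 rose, among them Rpl11 (1.31) and Trp53bp1 (1.11), and 7 fell, among them Ppp1r13l (-2.24), an inhibitor of p53, and the acetyltransferases Crebbp (-2.35) and Ep300 (-2.17). Of all genes, 26% rose and 24.7% fell there.

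Among 12 further targets in arrest and feedback, 5 rose and 3 fell over 24 h in wt cells, beside 26% and 24.7% of all genes. The kinase gene Plk3 rose in all 3 lines (2.58 in wt cells, SE 0.29, adjusted p = 3.08e-06; 2.73 in KO#1; 2.61 in KO#2), and Gdf15, a secreted stress factor, fell in all 3 (-2.90, -2.71 and -2.27). Tob1, an antiproliferative protein, fell in wt cells (-1.99) and KO#1 (-1.93). Against wt cells, Fbxw7, the substrate receptor of a ubiquitin ligase, was higher in KO#2 at 0 h (1.10) and 24 h (1.06), and Gtse1, which is made in G2 and restrains p53, was lower at both (-0.86 and -1.09).

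Among 12 further targets in cell death, 6 rose and 1 fell over 24 h in wt cells, beside 26% and 24.7% of all genes. Bax, the pore-forming Bcl-2 relative, rose from a mean of 114 to 347 CPM (log2 fold change 1.61, SE 0.23, adjusted p = 2.95e-05), and Siva1, a proapoptotic protein, from 49.1 to 173 CPM (1.81, SE 0.28, adjusted p = 6.99e-05). Both rose in KO#1 as well (1.49 and 2.12), and Siva1 rose in KO#2 (0.97, SE 0.28, adjusted p = 0.0145). In KO#2 both were lower than in wt cells, Bax by -1.03 at 0 h and -2.07 at 24 h (adjusted p = 6.87e-06) and Siva1 by -1.09 and -1.92 (adjusted p = 8.33e-05), the side on which Bbc3 and Pmaip1 lay. Eda2r, a death receptor relative, was higher in KO#2 at both times (2.59 and 1.18), so the death targets did not share a direction: at 24 h 2 of the 12 were called higher and 3 lower, beside 37.3% of all genes called.

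Among 12 further targets in metabolism and repair, 0 rose and 4 fell over 24 h in wt cells, beside 26% and 24.7% of all genes. Ddit4, which like Sesn2 restrains mTORC1, fell in wt cells (-2.15, SE 0.33, adjusted p = 5.43e-05), KO#1 (-2.25) and KO#2 (-1.37), and Ephx1, an epoxide hydrolase, fell in all 3 lines too (-1.63, -1.57 and -2.39). Ddb2, a sensor of UV damage, fell in wt cells (-1.63). Against wt cells, Sesn1, a relative of Sesn2, was higher at 24 h in KO#1 (1.15, SE 0.35, adjusted p = 0.0416) and KO#2 (1.27, SE 0.35, adjusted p = 0.00855), and Fdxr, a mitochondrial electron donor, was lower in KO#2 at both times (-0.95 and -1.36).

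**Figure D5:**
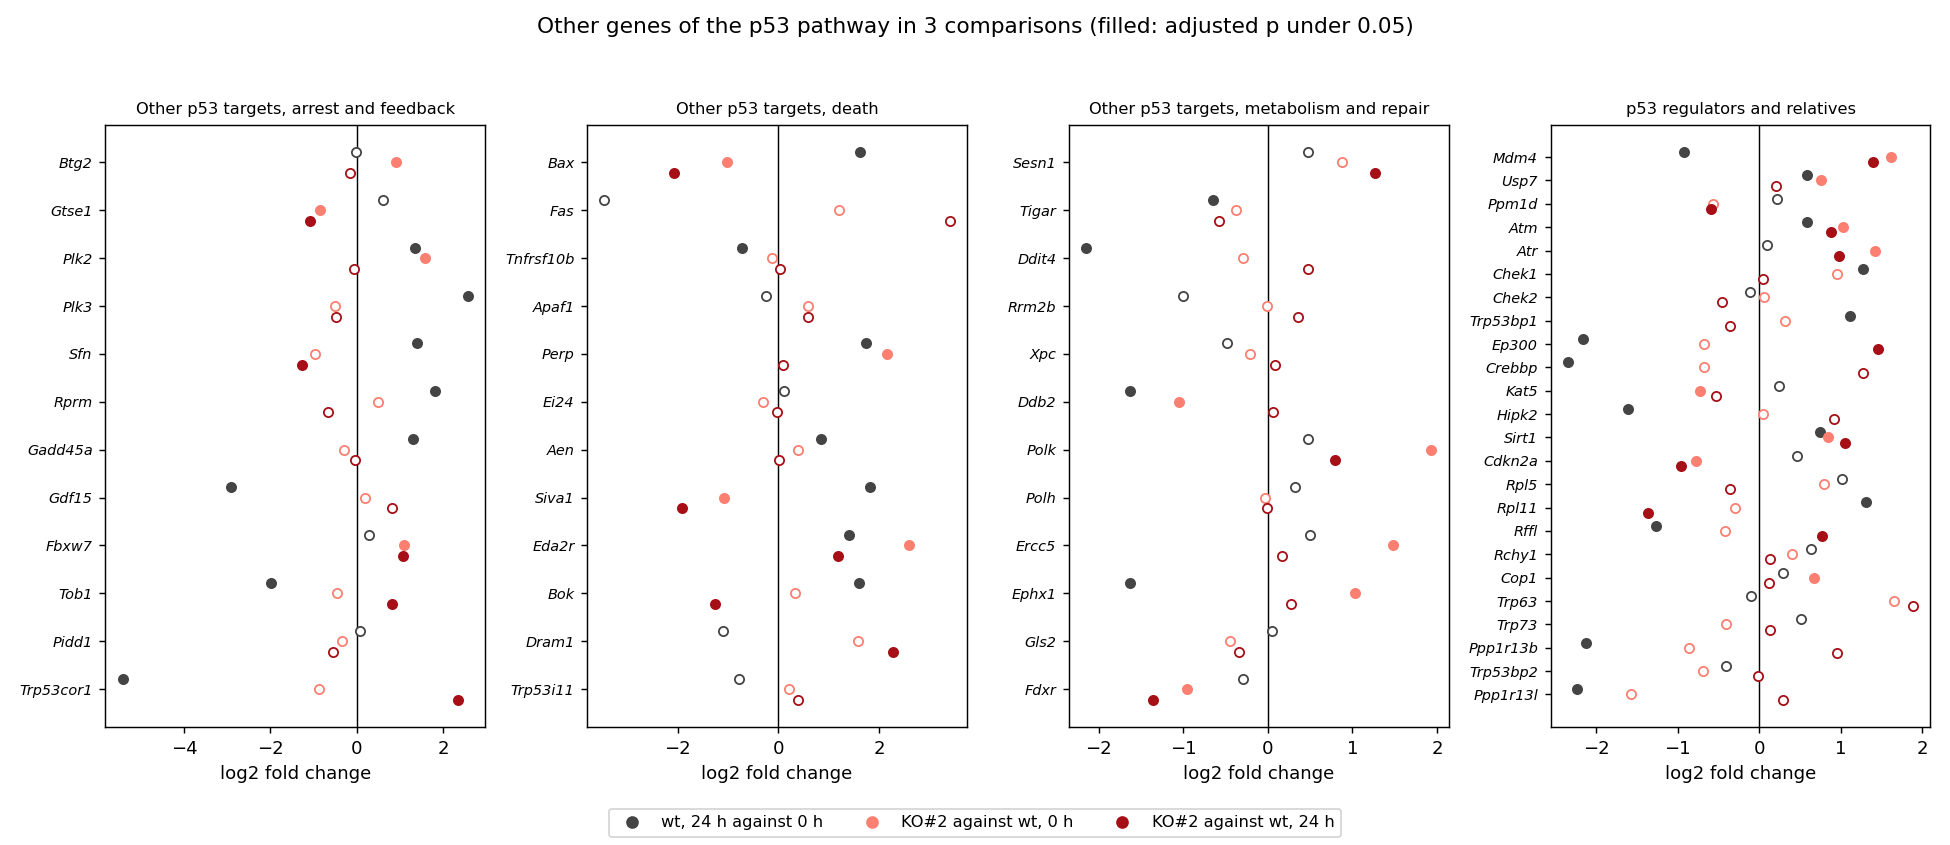
Log2 fold changes (horizontal axes) of 60 other p53 pathway genes in wt cells at 24 h against 0 h (grey) and in KO#2 against wt cells at 0 h (light red) and 24 h (dark red), in 4 lists, with filled points for an adjusted p under 0.05. Points lay on both sides of 0 in each list; Bax and Siva1 were on the right for wt cells over time and on the left for KO#2.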

How the data were processed

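The authors deposited counts, the whole and not normalized numbers of reads assigned to 45706 genes in 18 libraries, and 0 columns lacked a sample. According to the methods, stranded libraries of total RNA were sequenced as paired ends, trimmed with Trim Galore, cleared of ribosomal reads and aligned to Ensembl GRCm38 with STAR, and DESeq2 tested genes. Salmon and StringTie are named for quantification of genes and transcripts. Which program made the deposited table of whole-number counts, with which annotation release and strand setting, is not given in the sources used here. The other assays of the study were not analysed here.

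Analyses used R 4.3.3 with edgeR 4.0.16, limma 3.58.1 and DESeq2 1.42.0, and Python 3.11.15 with matplotlib 3.10.9. Genes were kept by filterByExpr (by group, minimum count 10), which left 16619, and TMM factors scaled the libraries. One quasi-likelihood model of the 6 groups was fitted in edgeR (prior degrees of freedom 6.39, residual 12). Benjamini-Hochberg adjustment ran over all genes tested in each of 11 comparisons. A standard error is the absolute log2 fold change over the root of its F statistic, and 95% intervals use the t quantile at the sum of the degrees of freedom. The count test was tested on simulated data. Gene types, positions and exon lengths came from GENCODE M21 (GRCm38), which holds 45143 of the gene identifiers, and promoter sequences from RefSeq GRCm38.p6. Library totals of 3466436 to 23872837 counts and 3 libraries per group limit the precision, and 0 of 153 pairs of libraries were identical.

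Groups came from sample titles. The 10 genes, the pathway and marker lists and the tests were chosen with earlier results of these data known. Named pathway genes were up to the 3 largest rises and falls per list and comparison among genes called, with no overlap of the groups and average log2 CPM at or above 1. Genes of like profile were the 3 nearest among genes averaging 2 or more. Replicate numbers were checked for pairing: only KO#1 against wt cells at 24 h had a correlation of deviations over 0.1 in every pair (mean 0.430, from 0.223 to 0.587), so the numbers were taken to pair samples there, and the fit with a replicate block gave the same call (Pmaip1, -1.44). Alternatives were DESeq2, other scalings and filters, only the groups compared, a replicate block, protein-coding genes, stricter thresholds and each library left out; leaving out the 2 libraries with fewest counts, or the 5 most abundant genes, was chosen after seeing the data.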

Additional observations from a re-analysis of the deposited data

How the results depend on the processing

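Of 35 called values of the 10 genes and Hmga2, 9 kept their call in every setting tried and 2 changed sign in at least one. With library totals alone, the log2 fold change of Trp53 was -0.22 over 24 h in KO#1, 0.0096 in KO#2 against wt cells and 0.13 in KO#2 against KO#1 at 24 h, and that of Cdkn1a in the last comparison 0.16; Cdkn2a was -0.0877 over 24 h in KO#1, and Cdkn2a and Ppm1d were 0.0768 and 0.45 in KO#2 against wt cells at 24 h. The median of all genes moved by construction under that scaling (1.24 in KO#2 against wt cells at 24 h). It left 3 of the 10 genes called over 24 h in wt cells and 0 in KO#1 against wt cells at 0 h, beside 7432 and 801 of all 16619 genes. At an adjusted p under 0.01, 2 were called over 24 h in wt cells, 1 in KO#2, and 1 in KO#2 against KO#1 at each time. Of all 16619 genes, 5783 and 2275 were then called over 24 h in wt cells and KO#2. In KO#2 against KO#1 1914 were called at 0 h and 3402 at 24 h. Without the 2 libraries with fewest counts, 2 of the 10 genes were called in KO#2 against KO#1 at 0 h, beside 3573 of all 17252. Without the filter on low counts, 3 of the 10 were called for the response of KO#2 minus that of wt cells, beside 1717 of all 29079. The cause was not tested. Leaving out 1 library gave 3 to 6 calls over 24 h in wt cells (6822 to 8115 over all genes), 2 to 4 in KO#1 (4573 to 7160) and 1 to 3 in KO#2 (2534 to 4104). For KO#1 against wt cells at 0 h it gave 0 to 1 (598 to 937). For KO#2 against KO#1 it gave 1 to 4 at 0 h (2601 to 3613) and 2 to 5 at 24 h (4359 to 5275). It gave 5 to 8 calls for KO#2 against wt cells at 0 h (4459 to 5628 over all genes) and 4 to 5 at 24 h (4562 to 5981). These fits tested 16948 to 17320 genes. Of 84 values of other pathway genes, 42 kept their call in every setting. With a replicate block, 7 of the 10 genes were called in KO#2 against wt cells at 0 h and 4 at 24 h, as without it, and 6 in KO#2 against KO#1 at each time in place of 4. Over all 16619 genes the block gave 6467 and 6437 calls against wt cells. Against KO#1 it gave 4682 at 0 h and 6119 at 24 h, in place of 4393 and 5878. In these comparisons the replicate numbers did not pass the check for pairing, which does not show that the samples were unpaired. Of 74 other values of the 10 genes and Hmga2, 33 changed sign and 16 were called in some setting.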
